A study of Homo sapiens with 4 samples.

Results

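The C/EBP genes CEBPA, CEBPB, CEBPD, CEBPE and CEBPG encode a family of transcription factors, and chromatin accessibility around them was described from ATAC-seq peak lists of HL-60 cells. The 5 genes were taken by name from the GENCODE annotation of hg19, as 5 of 20136 protein-coding genes, and every peak that overlapped a gene body or the 100 kb on either side of it was counted. Overlapping peaks of the 4 libraries were merged into 78063 regions across the genome, of which 51 lay in the 5 windows. HL-60 (ATCC CCL-240) is a human leukemia line labelled acute promyelocytic leukemia and derived from peripheral blood, and it is a single line, so every library shares its genotype. The ATRA group received 1 µM all-trans retinoic acid, a ligand of the retinoic acid receptors, for 4 days, and the control group received the same volume of ethanol, with medium and agent renewed at day 2 in both. Each group held 2 libraries, and the question put to them was which peaks around the C/EBP genes differ between induced and control cells.

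C/EBP factors are basic leucine zipper proteins that bind DNA as homodimers or as heterodimers with each other. CEBPA drives progenitors into the granulocyte lineage, and CEBPE acts later, in terminal granulocyte maturation and the formation of secondary granules. CEBPB serves granulopoiesis under stress and the macrophage programme, CEBPD is an acute-phase and inflammatory factor, and CEBPG, which lacks a typical activation domain, acts mainly as a dimer partner and in stress responses.

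The 4 lists differed in length. ATRA replicate 2 stood apart with 63541 peaks of a median width of 416 bp, whereas ATRA replicate 1 and the control libraries held 42081 to 45903 peaks with median widths of 291 to 328 bp. The deposited score ran from 50 to 3100 over the lists, so a locus without a peak had not passed the peak calling threshold, which is not the same as closed chromatin. Scores were compared as percentiles within a list, where a percentile of 60 means that about that percentage of the peaks of the library scored lower. Of 7 myeloid marker genes, SPI1, CD33 and LYZ had a promoter peak in all 4 libraries and ELANE and AZU1 had one in none, and of 13 markers of other cell types 10 had none in any library. The study describes its ATAC-seq replicates as independent biological replicates, while the labels do not say whether they were separate cultures. The p-values measure the spread between these libraries only.

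Promoter sequences are shown for the 4 genes whose promoters held a peak, because the presence of a promoter peak differed among the C/EBP genes. Each runs 5′ to 3′ on the strand of the gene from 250 bp upstream to 50 bp downstream of its outermost annotated start site, and was read from the hg19 (GRCh37) genome. Capitals mark a TATA box (spelled TATAAA), a GC box (spelled GGGCGG), the box named for its letters CCAAT, a cyclic AMP response half-site (CRE, spelled TGACG) or a PU.1 motif (spelled GAGGAAGT), each on either strand, and none of these motifs overlapped another here.
CEBPB, chr20:48807117-48807416, plus strand: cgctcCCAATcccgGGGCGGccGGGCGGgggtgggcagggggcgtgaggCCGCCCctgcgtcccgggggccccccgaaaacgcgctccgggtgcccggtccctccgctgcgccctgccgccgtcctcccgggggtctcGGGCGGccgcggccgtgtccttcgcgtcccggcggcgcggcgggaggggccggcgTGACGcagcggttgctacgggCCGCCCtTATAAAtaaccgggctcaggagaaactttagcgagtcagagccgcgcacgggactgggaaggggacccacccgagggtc
CEBPA, chr19:33793391-33793690, minus strand: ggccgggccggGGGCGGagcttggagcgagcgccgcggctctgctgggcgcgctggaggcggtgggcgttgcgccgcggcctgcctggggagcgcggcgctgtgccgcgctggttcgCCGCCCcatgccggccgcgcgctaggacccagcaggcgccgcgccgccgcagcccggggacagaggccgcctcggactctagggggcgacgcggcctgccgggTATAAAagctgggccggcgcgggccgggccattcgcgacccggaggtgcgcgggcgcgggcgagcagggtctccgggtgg
CEBPG, chr19:33864341-33864640, plus strand: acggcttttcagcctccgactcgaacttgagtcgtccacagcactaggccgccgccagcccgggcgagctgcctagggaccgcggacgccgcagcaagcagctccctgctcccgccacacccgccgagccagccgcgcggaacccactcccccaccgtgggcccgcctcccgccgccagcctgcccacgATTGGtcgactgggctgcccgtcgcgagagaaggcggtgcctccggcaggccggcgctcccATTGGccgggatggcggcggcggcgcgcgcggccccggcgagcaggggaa
CEBPE, chr14:23589416-23589715, minus strand: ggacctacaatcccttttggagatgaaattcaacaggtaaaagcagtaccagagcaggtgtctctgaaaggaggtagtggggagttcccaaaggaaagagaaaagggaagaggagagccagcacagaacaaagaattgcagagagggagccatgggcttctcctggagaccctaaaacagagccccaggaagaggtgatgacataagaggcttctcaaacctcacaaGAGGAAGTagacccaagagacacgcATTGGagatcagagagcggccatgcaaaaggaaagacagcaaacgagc
Of 20132 promoters of this length, 10.9% held a TATA box, 52.2% a GC box, 35.8% a CCAAT box, 26.8% a CRE half-site and 2.43% a PU.1 motif. The CEBPA and CEBPB promoters both held a TATA box, starting 30 and 29 bp upstream of the start site, with 2 GC boxes in CEBPA and 5 in CEBPB. The CRE half-site of CEBPB began 57 bp upstream. CEBPG had 2 CCAAT boxes and neither a TATA nor a GC box. The CEBPE promoter was unlike these, with a GC content of 49.7% against 75.3 to 80.7% for the others shown. It had 3 CpG dinucleotides against 41 to 50, and the PU.1 motif. The CEBPD promoter, not printed because it held no peak, had a CRE half-site that began 42 bp upstream. It also had 3 GC boxes, a GC content of 81% and 35 CpG dinucleotides. These matches are descriptions of letters, and binding there was not measured. The CEBPE sequence printed lay inside the peak of ATRA replicate 2 only, and no CEBPE peak of another library reached it.

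The promoter of CEBPB, defined as 1 kb upstream to 100 bp downstream of a start site, had a peak in both ATRA libraries and in neither control library. The region (chr20:48806804-48807690, centred 120 bp upstream of the start site) had a percentile of 57.2 in ATRA replicate 1 and 51.9 in ATRA replicate 2. Its peaks were 887 and 761 bp wide, and each covered the start site, the TATA box and the CRE half-site shown above. CEBPB was thus the C/EBP gene with an ATRA-specific promoter peak, meaning one present in both ATRA libraries and absent from both control lists, as were the promoters of 2.31% of all protein-coding genes.

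CEBPA and CEBPG each had a promoter peak in both ATRA libraries and in control replicate 1. The CEBPA peak (chr19:33793335-33793822) had percentiles of 52.6 and 60.3 in ATRA replicates 1 and 2, 20.6 in control replicate 1, and was not called in control replicate 2. It narrowed from 488 and 465 bp in the ATRA libraries to 236 bp in control replicate 1, where it ended just upstream of the start site rather than covering it. The CEBPG peak (chr19:33864253-33864869) had percentiles of 75.6, 54.2 and 48.0 in the same 3 libraries and covered 2 of the 3 annotated start sites in each. A further CEBPG region 1133 bp upstream (chr19:33863227-33863689) was called in both ATRA libraries, at 31.8 and 48.6, and in control replicate 2, at 20.3. The merged region reached the promoter, but the control replicate 2 peak in it (chr19:33863347-33863562) ended outside the 1 kb limit. That peak was therefore not counted as a promoter peak. At all 3 regions both ATRA percentiles lay above the control value that was measured. Presence in both ATRA libraries and 1 control library was the pattern of 5.51% of all promoters.

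CEBPE was the C/EBP gene with promoter peaks in all 4 libraries, as had 44.2% of all promoters. Its region (chr14:23587838-23589720) spanned 3 annotated start sites, and the ATRA libraries had percentiles of 15.5 (replicate 1) and 89.7 (replicate 2), against 70.9 (replicate 1) and 10.1 (replicate 2) for the control libraries. The groups therefore overlapped entirely, with a high and a low library in each. The peak of ATRA replicate 2 was 1786 bp wide and covered 3 start sites, and that of control replicate 1 was 1379 bp wide and covered 2. The narrow peaks of ATRA replicate 1 (534 bp) and control replicate 2 (472 bp) covered 1 start site each and did not overlap one another. A region 650 bp upstream (chr14:23589788-23590442) had percentiles of 33.9 and 48.0 in the ATRA libraries, none in control replicate 1 and 18.4 in control replicate 2. The CEBPD promoter had no peak in any library, as had 40.7% of all promoters.

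**Figure D1:**
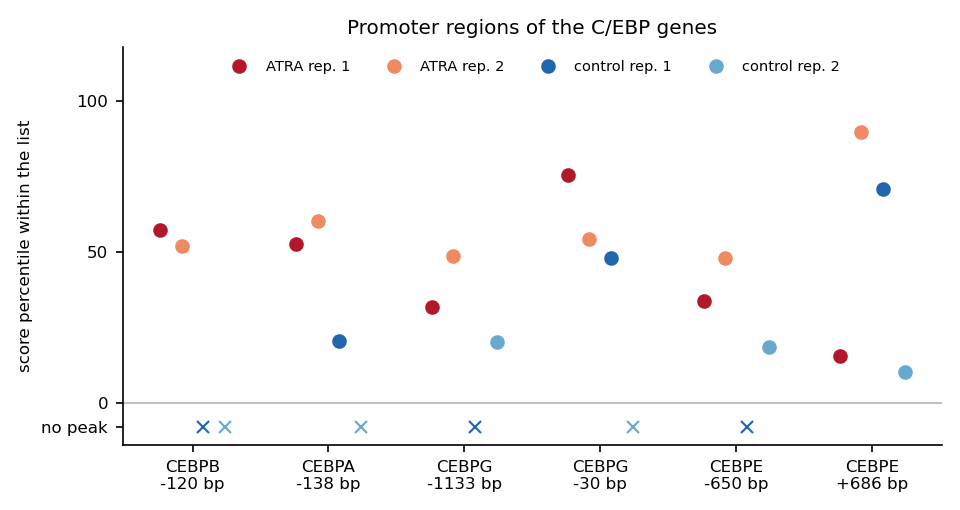
Score percentile within each peak list (vertical axis, 0 to 100) of the 6 regions at C/EBP promoters, with crosses on the lowest line where a library had no peak; the horizontal axis names the gene and the distance of the region's centre from the outermost start site. CEBPB at 120 bp upstream has ATRA peaks at 57.2 and 51.9 and no control peak, and the CEBPE region at 686 bp downstream has a high and a low library in each group.

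Over whole windows, CEBPA, CEBPG and CEBPB had more peaks in both ATRA than in both control libraries, and CEBPD and CEBPE did not. The CEBPG window held 9 and 10 peaks in the ATRA libraries and 2 and 1 in the control libraries. The CEBPA window held 8 and 11 against 4 and 3. These windows overlap, because the genes lie about 71 kb apart on chromosome 19 and shared 8 regions, so they are not independent. Counting each peak a single time, the pair had 10 and 14 peaks in the ATRA libraries and 4 and 3 in the control libraries, a mean of 12 ± 2.83 (SD, n = 2) against 3.5 ± 0.707 (SD, n = 2). The CEBPB window held 8 and 9 against 6 and 6. The CEBPD window held 3 and 5 against 4 and 3, and the CEBPE window 10 and 13 against 9 and 14, so the groups overlapped at both.

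The 3 of 5 C/EBP genes with more peaks in both ATRA libraries stand against 27.2% of all protein-coding genes, and none of the 5 had more in both control libraries against 2.3%. When the lists were limited to the same number of highest-scoring peaks, 16.4% of all genes had more in both ATRA libraries. In that setting CEBPG held 8 and 9 against 2 and 1, CEBPA 7 and 10 against 4 and 3, and CEBPB 8 and 7 against 6 and 5. The difference of group means was 8 peaks for CEBPG, reached or exceeded by 157 genes (0.78% of all), and 6 peaks for CEBPA, reached or exceeded by 635 genes (3.15%). For CEBPB the difference was 2.5 peaks, reached by 28.7% of genes. Per 10000 peaks in a list the CEBPB window held 1.84 and 1.42 peaks in the ATRA libraries and 1.43 and 1.31 in the control libraries, so on that scale the groups overlapped.

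**Figure D2:**
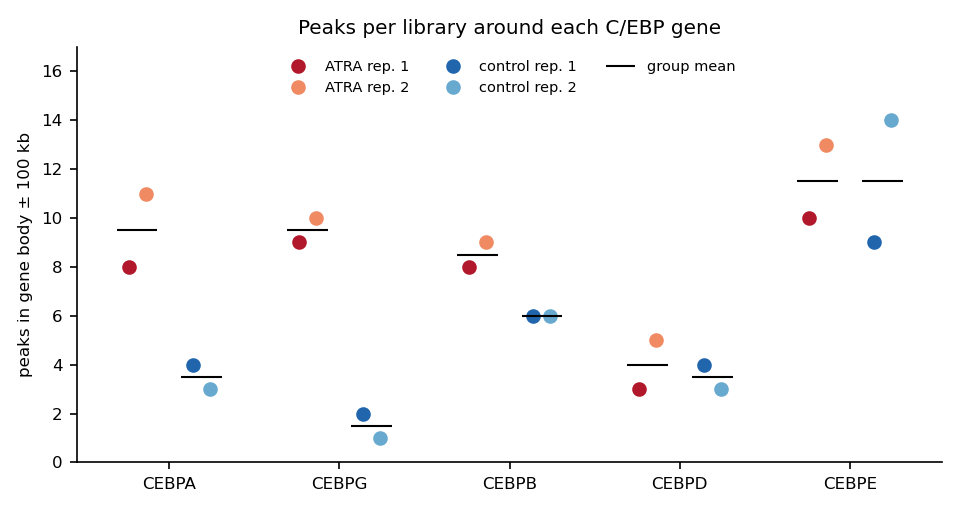
Number of peaks (vertical axis) overlapping the gene body or the 100 kb on either side of each C/EBP gene, with 1 point per library and a line at each group mean (n = 2). The groups are apart at CEBPA, CEBPG and CEBPB and overlap at CEBPD and CEBPE.

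All 5 windows together held 31 and 41 peaks in the ATRA libraries and 23 and 26 in the control libraries, a mean of 36 ± 7.07 against 24.5 ± 2.12 (SD, n = 2 each). The difference of 11.5 peaks had a two-sided p of 0.333 in the exact permutation test, which is the smallest that 2 against 2 libraries allow. Per 10000 peaks the windows held 7.13 and 6.45 against 5.47 and 5.66, with the same exact p of 0.333. The gap comes mostly from CEBPA and CEBPG, whose shared window alone differed by 8.5 peaks. Without ATRA replicate 2, the library with the longest list, the difference over all 5 windows was 6.5.

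**Figure D3:**
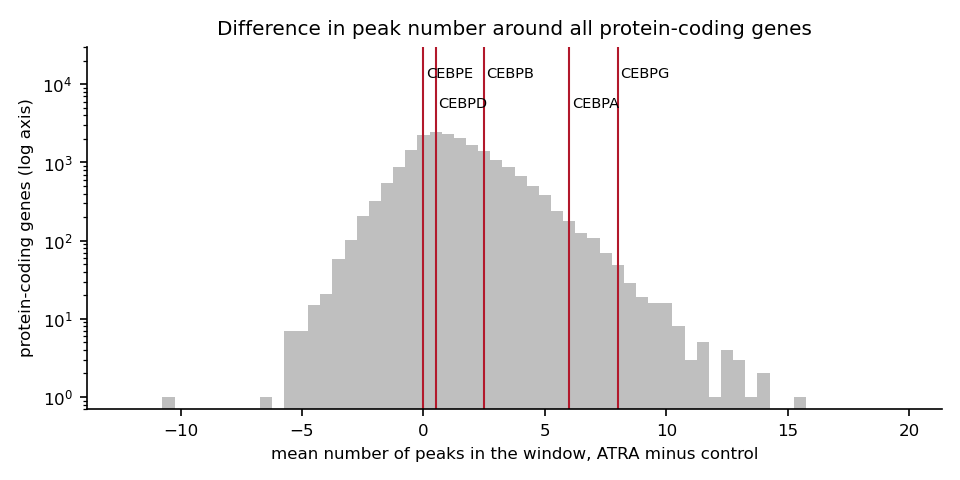
Difference in peak number (mean of 2 ATRA libraries minus mean of 2 control libraries, horizontal axis) around all 20136 protein-coding genes, as a histogram with a log vertical axis, with lines at the C/EBP genes. CEBPG at 8 and CEBPA at 6 lie in the upper tail, while CEBPE at 0, CEBPD at 0.5 and CEBPB at 2.5 lie in the bulk.

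Of the 51 regions, 8 (15.7%) were ATRA-specific, against 8.94% of all regions, and 3 (5.88%) were control-specific, against 3.37%. A peak in all 4 libraries was found at 13 regions (25.5%), against 30.3% of all regions. The other 27 had mixed patterns, and 17 of them were peaks of 1 library, 11 of these in ATRA replicate 2. Without ATRA replicate 1 the ATRA-specific count was 19, and without control replicate 1 the control-specific count was 6, since a single library then stood for its group. The shares over all regions above are for the 4 libraries, and none is given with a library left out. At least 1 ATRA-specific region lay in the windows of CEBPA, CEBPB and CEBPG, which is 3 of 5 genes against 56.3% of all genes. At least 1 control-specific region lay in the windows of CEBPA, CEBPB and CEBPE, again 3 of 5 genes, against 24.8%.

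The CEBPA and CEBPG neighbourhood held 5 ATRA-specific regions, 1 control-specific region and none with peaks in all 4 libraries among its 17 regions, and the ATRA-specific count was 10 without ATRA replicate 1. On the downstream side of CEBPA, an ATRA-specific region lay 42.9 kb from the start site (chr19:33750328-33750830), with percentiles of 9.8 and 48.7 in the ATRA libraries. Another lay 28.4 kb downstream (chr19:33764792-33765298), with percentiles of 7.0 (the higher of 2 peaks) and 64.9. The last, between CEBPA and CEBPG and 30.0 kb upstream of CEBPA (chr19:33823207-33823604), had percentiles of 16.9 and 48.9. All 3 lay outside protein-coding genes, called intergenic here, and the start site nearest to the latter 2 was that of CEBPA. All 3 ranked low in ATRA replicate 1 and near the middle of the list or above it in ATRA replicate 2. A downstream enhancer of CEBPA active in myeloid cells is known, and whether any of these regions is that element was not tested.

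The control-specific region of this neighbourhood was also downstream of CEBPA, 48.0 kb from its start site (chr19:33745273-33745687). It had percentiles of 51.1 and 80.5 in control replicates 1 and 2 and no peak in either ATRA library, which makes it the control-specific region with the highest percentiles around the C/EBP genes. It lay about 5 kb from the ATRA-specific region at 42.9 kb. On the other side of that ATRA-specific region, 41.4 kb downstream of CEBPA (chr19:33751860-33752174), a region had a peak in control replicate 1 only, at 35.9. The central 200 bp of the regions at 48.0 and 42.9 kb are shown on the plus strand of hg19. These 2 regions were chosen because they lie side by side and have opposite patterns. Capitals mark an E-box (CACGTG), the binding site of basic helix-loop-helix factors.
CEBPA 48.0 kb downstream, control-specific, chr19:33745381-33745580: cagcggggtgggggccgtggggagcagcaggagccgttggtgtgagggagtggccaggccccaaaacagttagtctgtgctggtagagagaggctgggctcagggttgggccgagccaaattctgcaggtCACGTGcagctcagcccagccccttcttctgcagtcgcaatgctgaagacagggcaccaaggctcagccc
CEBPA 42.9 kb downstream, ATRA-specific, chr19:33750480-33750679: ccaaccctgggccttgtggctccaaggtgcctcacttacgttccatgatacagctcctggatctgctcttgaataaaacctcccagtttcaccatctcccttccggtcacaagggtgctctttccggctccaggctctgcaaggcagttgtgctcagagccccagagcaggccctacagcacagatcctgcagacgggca
An E-box was found in the central 200 bp of 3.73% of all regions. None of the motifs searched was found in the centre of the ATRA-specific region. Its full length held 1 AP-1 motif (TGACTCA), for which no share over full lengths is given.

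Beyond CEBPG, 2 ATRA-specific regions lay in introns of PEPD, which encodes the dipeptidase prolidase. The region 33.3 kb downstream of the CEBPG start site (chr19:33897554-33898146) had percentiles of 53.6 and 64.1, with peaks of 417 and 593 bp. The region 57.1 kb downstream (chr19:33921529-33921916) had percentiles of 60.1 and 39.8, with peaks of 289 and 388 bp. Both ranked in the middle of the lists in both ATRA libraries, unlike the CEBPA-side regions that ranked low in ATRA replicate 1. Between them, 42.8 kb downstream of the CEBPG start site, a region at an annotated internal start of PEPD had a peak in ATRA replicate 2 only, at 50.8.

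The CEBPB window held, beside its promoter, 2 distal ATRA-specific regions. The region 21.3 kb upstream (chr20:48785942-48786279) had percentiles of 31.0 and 39.0. The region 85.5 kb downstream (chr20:48892585-48893105), inside the long non-coding RNA gene PELATON, had percentiles of 38.5 and 56.7. The control-specific region lay 69.8 kb upstream in an exon of PEDS1, a plasmalogen desaturase gene (chr20:48737467-48737697), with percentiles of 21.4 and 28.8. All 4 CEBPB regions found in every library belonged to neighbours, at start sites of UBE2V1 and PEDS1, an internal UBE2V1 start included, or in a PEDS1 intron. A region 4.4 kb upstream, in the antisense gene CEBPB-AS1, had weak peaks in ATRA replicate 2 (30.4) and control replicate 2 (2.9).

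CEBPE had the window with the most regions shared by every library, 8 of 18, and no ATRA-specific region. Leaving out ATRA replicate 1 gave 4 ATRA-specific regions, and leaving out ATRA replicate 2 or control replicate 2 gave 1. The region 6.6 kb downstream of its outermost start site (chr14:23581692-23584106), named here after its values were seen, had percentiles of 72.3 and 91.5 in the ATRA libraries and 84.6 and 85.2 in the control libraries. It was intergenic, with CEBPE as the nearest gene start, and its peaks were 496, 2264 and 1893 bp wide in ATRA replicates 1 and 2 and control replicate 1, while 2 peaks of control replicate 2 covered 1264 bp together. Downstream enhancers of CEBPE are known in granulocyte precursors, and whether this region is part of them was not tested. The control-specific region 42.7 kb upstream, in an intron of the amino acid transporter gene SLC7A8 (chr14:23631990-23632293), had percentiles of 24.1 and 42.0. The highest-scoring peaks of any C/EBP window lay 25.0 kb downstream at the shared promoter of ACIN1 and C14orf119, with percentiles of 98.6, 99.3, 97.2 and 96.4.

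CEBPD, on chromosome 8, had the sparsest window, with 6 regions and neither an ATRA-specific nor a control-specific one, although 2 were ATRA-specific without ATRA replicate 1 and 1 was without control replicate 1. A peak within its gene body, 778 bp downstream of the start site, was called in ATRA replicate 1 (31.2) and control replicate 1 (16.7) and in neither replicate 2. The region 3.0 kb downstream, in an exon annotated to the neighbouring DNA repair gene SPIDR, had percentiles of 67.1 and 74.6 in the ATRA libraries, 39.1 in control replicate 1 and none in control replicate 2. A region 60.4 kb downstream was called in all 4 libraries, at 14.3 and 27.6 in the ATRA and 22.0 and 57.3 in the control libraries. Next to it, at 61.2 kb, a region was called at 45.4 in ATRA replicate 2 and at 76.2 and 47.6 in the control libraries.

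**Figure D4:**
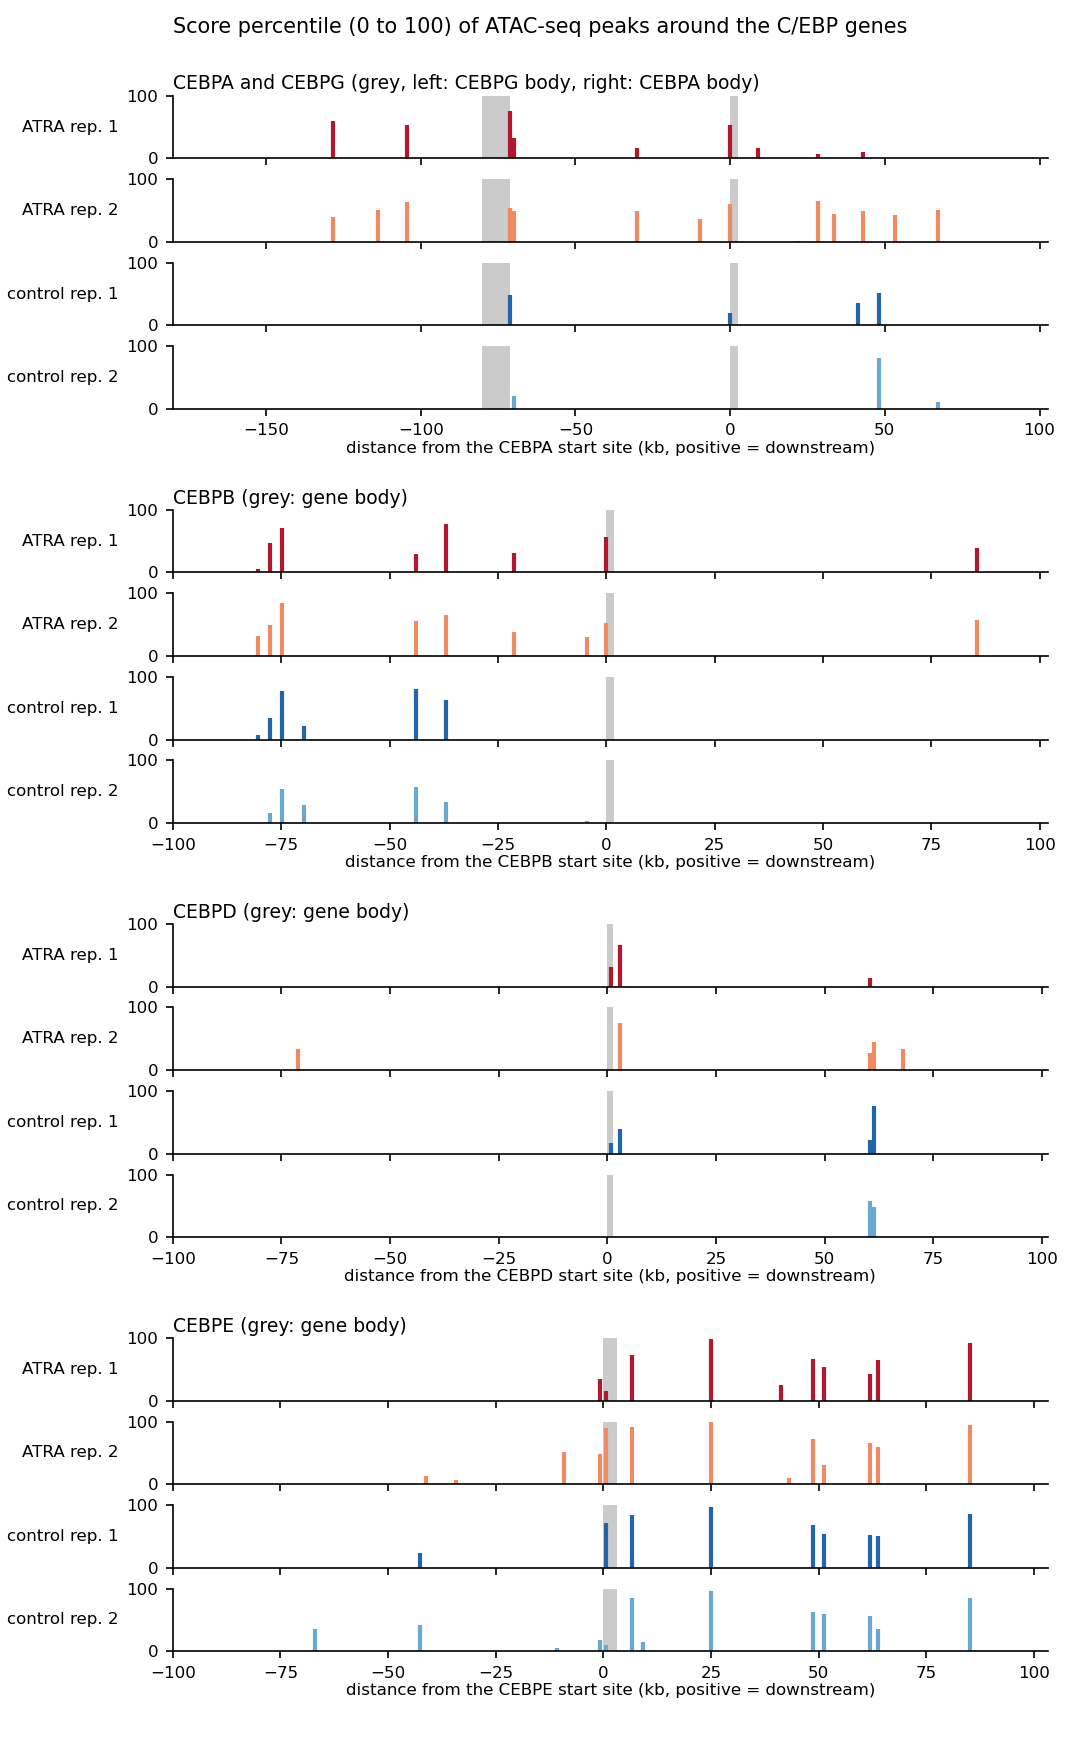
Score percentile (bar height, 0 to 100) of each peak region in the 4 libraries against its distance from the start site in kb (CEBPA for the joint window of CEBPA and CEBPG), with gene bodies in grey. The control libraries had 4 and 3 peaks around CEBPA and CEBPG against 10 and 14 in the ATRA libraries. Each region is 1 bar, so the 2 peaks of ATRA replicate 1 at 28.4 kb downstream of CEBPA share a bar. The CEBPE tracks hold the same 8 shared regions in every library.

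Scores could be compared at the 13 C/EBP regions called in all 4 libraries. With limma on normal scores of the percentiles, fitted over all 23653 such regions, none passed a Benjamini-Hochberg adjusted p of 0.05 (0% called, lowest adjusted p 0.297), and 10.5% had an unadjusted p under 0.05. None of the 13 passed either threshold, and their lowest adjusted p in limma was 0.571. When limma let the spread follow the mean rank, 0.765% of all regions were called, 104 higher and 77 lower in ATRA, and again none of the 13 (lowest adjusted p 0.34). The median difference of the 13, ATRA minus control, was 0.35 normal-score units against 0.14 over all regions. These medians rested on single libraries, being 0.03 and 0.0048 without ATRA replicate 2, and 0.06 for the 13 against 0.15 for all regions without control replicate 2, which turns their order. Of the 13 differences 9 were above 0, and no share over all regions is given for this. That count was 7 without ATRA replicate 2 and 7 with quantile-normalized log2 scores. It was 8 without either control replicate and 10 without ATRA replicate 1.

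Both ATRA percentiles lay above both control percentiles at 5 of the 13 regions, against 29.2% of the regions in all 4 libraries, and below both at 2, against 12.8%. At single regions the spread between replicates was large. The largest fall among the 13 was at the PEDS1 intron 43.8 kb upstream of CEBPB, where the percentiles were 29.5 and 56.6 in the ATRA libraries and 80.5 and 56.8 in the control libraries (difference −0.70 ± 0.42 normal-score units, SE, adjusted p = 0.616, limma). The internal UBE2V1 start 77.5 kb upstream of CEBPB had percentiles of 47.2 and 49.4 against 34.1 and 15.4 (0.67 ± 0.36, SE, adjusted p = 0.571, limma), without overlap between the groups. The PSMB5 promoter, 85.2 kb downstream of CEBPE and encoding a proteasome subunit, had 91.8 and 94.7 against 86.3 and 84.3, also without overlap (0.46 ± 0.32, SE, adjusted p = 0.665, limma). The CEBPE promoter region differed by 0.49 ± 0.90 (SE, adjusted p = 0.897, limma), and the sign turned without ATRA replicate 2 (−0.65) and without control replicate 2 (−0.43). The CEBPE region 6.6 kb downstream differed by −0.05 ± 0.38 (SE, adjusted p = 0.976, limma).

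**Figure D5:**
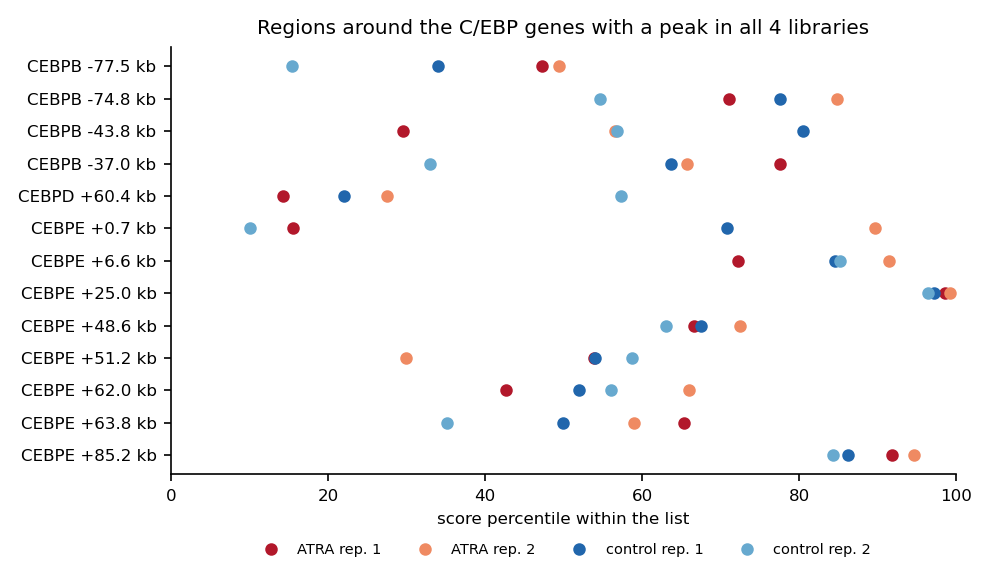
Score percentile within each list (horizontal axis) of the 13 regions around C/EBP genes that had a peak in all 4 libraries, 1 line per region with the gene and the distance in kb from its start site, and 1 point per library. The ATRA and control points overlap in range at 6 of the 13 regions, and no region passed the test.

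By position, 6 of the 51 regions lay at a C/EBP promoter and 12 at an annotated start of another gene, while 16 were intergenic, 12 intronic and 5 exonic. Of the 8 ATRA-specific regions 5 were intergenic, 2 intronic and 1 (CEBPB) at a promoter, and of the 13 regions shared by every library 9 were at promoters and 1 was intergenic, the CEBPE region 6.6 kb downstream. The regions had a median length of 463 bp against 405 bp over all regions.

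Motif letters were searched in the central 200 bp of each region on both strands, for C/EBP (TTGCNNAA), PU.1, GATA (GATAA after A or T), RUNX (AACCACA), AP-1, the E-box, CTCF and DR5, the last a retinoic acid receptor site (both by name). The C/EBP motif was found in 5 of 51 regions (9.8%) against 12.3% of all regions, among them the CEBPG region 1133 bp upstream. PU.1 was found in 2 against 8.95% of all, GATA in 6 against 18.8%, RUNX in 2 against 8.55%, AP-1 in 4 against 5.73% and CTCF in 5 against 5.88%. DR5 was found in none, against 0.0961% of all regions. The centres of the 8 ATRA-specific regions held none of these 8 motifs. Over their full lengths, AP-1 letters were found at the CEBPA regions 42.9 and 28.4 kb downstream, and CTCF letters at the CEBPB promoter. GATA and E-box letters were found at the CEBPG region 33.3 kb downstream, and GATA and RUNX letters at the one 57.1 kb downstream. The shares above are for the central 200 bp, so these full-length matches have no share over all regions beside them.

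Genes linked to C/EBP function were counted in the same way. Of 13 granulocyte genes regulated by C/EBP factors, 7 had more peaks in both ATRA libraries (AZU1, ELANE, IL6R, MMP8, MMP9, S100A8 and S100A9) against 27.2% of all genes, and none had more in both control libraries, with a median difference of 2 peaks against 1 over all genes and 2.5 over the C/EBP genes. S100A9, a calcium-binding protein of neutrophils, had 7 and 9 peaks against 1 and 2. Promoter peaks were ATRA-specific at 3 of the 13, namely S100A9, the collagenase gene MMP8 and the interleukin receptor gene IL6R, against 2.31% of all genes. At 5 of the 13 no library had a promoter peak, against 40.7% of all genes. S100A8 and S100A9 are neighbours, as are AZU1 and ELANE, and each pair shares much of its window and its peaks, so the 7 genes are fewer separate loci. Of 11 dimer partners and regulators, 3 had more peaks in both ATRA libraries, against 27.2% of all genes. The repressor GFI1 alone had more in both control libraries (7 and 8 against 10 and 10), against 2.3% of all genes. The median difference of the 11 was 0.5. Promoter peaks were found in all 4 libraries at 9 of these 11, against 44.2% of all promoters. They were control-specific at BATF and TRIB1, against 0.377% of all promoters and none of the C/EBP genes. TRIB1 encodes a pseudokinase that promotes degradation of C/EBPα.

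Among these 24 genes, the windows whose share of covered bases changed most like that of a C/EBP gene were named by Euclidean distance of log2 ratios over the 4 libraries. MMP9, the gelatinase gene, was nearest to CEBPB (0.268) and to CEBPA (0.79), and S100A9 was nearest to CEBPG (2.24). CEBPE was nearest to the granulocyte colony-stimulating factor receptor gene CSF3R (0.135), followed by LYZ (0.169), and CEBPD to ELANE (0.165). The CEBPE window held 295 and 331 covered bp per 1000000 covered bp in the ATRA libraries and 412 and 406 in the control libraries, but its covered bases were 5158 and 10481 against 7033 and 6629 bp and overlapped, and the ATRA replicate 2 list covers 31.6 Mb in all against 16.3 to 17.5 Mb in the others, so the lower share does not show less covered sequence there. The CEBPG window held 181 and 142 against 36.2 and 13.2.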

How the data were processed

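The 4 ATAC-seq libraries came from nuclei of HL-60 cells cut with Tn5 transposase. The submitters' processing notes name cutadapt, Bowtie2, MACS and MACS2 and the builds hg19 and GRCh37, and the study's methods state MACS2 with default parameters. Versions, the shift of Tn5 ends, duplicate removal and blacklist filtering are not given in the sources used here. The authors called peaks per library and deposited for each peak a position and a score whose scale is not stated; no read counts were used, so the depth is unknown and no counting interval is given. How many peaks pass a caller's threshold rises with depth, so a longer list can hold weaker peaks. The longest list, that of ATRA replicate 2, had a median score of 113.36. ATRA replicate 1 had 103.665, and control replicates 1 and 2 had 99.57 and 91.18. Whether depth made the lists differ in length was not tested.

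Starts were turned to 1-based. Peaks overlapping by at least 1 bp were merged over the 4 lists, and a region took the highest percentile of a library. Chaining can join peaks that do not overlap each other. Genes came from GENCODE release 44 lifted to GRCh37. Group differences were tested by exact permutation (scipy 1.17.1) and, over all regions in 4 libraries, with limma 3.58.1 in R 4.3.3, adjusted by Benjamini-Hochberg and tested on simulated data. Named regions were those at C/EBP promoters, every group-specific region, and per gene the 2 distal shared regions with the highest percentile and the 2 with the largest difference of percentile. Some regions outside this rule were also described. At CEBPD these lay 778 bp, 3.0 kb and 61.2 kb downstream. The others lay 41.4 kb downstream of CEBPA, 4.4 kb upstream of CEBPB, 42.8 kb downstream of CEBPG and 6.6 kb downstream of CEBPE. Sequences were read with pysam 0.24.0. The 5 genes, the 24 linked genes, the markers and the motifs were chosen with earlier results of these data known, and the promoter elements after seeing the sequences. The promoter of 1 marker gene is not reported here. Alternatives were a 50 kb window, equal peak numbers, peaks above the median score, peaks set to 200 bp, quantile-normalized log2 scores, a replicate block and leaving out each library.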

Additional observations from a re-analysis of the deposited data

How the results depend on the processing

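The count of 8 ATRA-specific regions was 7 with 50 kb windows, 8 with equal peak numbers or 200 bp peaks and 6 with peaks above the median score of each list, and it ranged from 10 to 19 when a library was left out, the 19 being without ATRA replicate 1. The count of 3 control-specific regions was 1 with peaks above the median score and ranged from 3 to 6 when a library was left out, the 6 being without control replicate 1. The count of 13 regions in all 4 libraries was 7 with 50 kb windows and 5 with peaks above the median score, and 13 to 17 when a library was left out. No share over all regions is given for these alternative counts. The difference of 11.5 peaks was 11 with 50 kb windows, 7.5 with equal peak numbers, 6 with peaks above the median score and 6.5 to 16.5 when a library was left out, so its direction held in these settings, with ATRA replicate 2 giving the most (6.5 without it). For CEBPA and CEBPG together it was 7.5 with equal numbers and 4 above the median score. The limma fit called 0 regions in every alternative except the spread as a trend of the mean rank, chosen after seeing the data, which called 181; the cause was not tested. Of 90 alternative values for 10 named regions, 2 changed sign, both at the CEBPE promoter region (0.49, and −0.65 to 1.63 when a library was left out, with −0.65 without ATRA replicate 2 and −0.43 without control replicate 2), and none was called. Replicate numbers are shared by the groups without a stated pairing. With the replicate block the difference was 11.5, which blocking cannot change in this balanced design. The paired exact p was 0.5, the smallest that 2 pairs allow, so it cannot be read as weaker or stronger than 0.333. With that block limma called 0 regions. The deviations of same-numbered libraries correlated with r = 0.2015 over 23653 regions. With 2 libraries a group and unknown depth, no exact test of a single region's presence can go below p = 0.333.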
